A study of Mus musculus with 24 samples.

Results

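The outer, basal layer of the mammary epithelium was followed through 10 genes, the keratin genes Krt5, Krt14 and Krt17, the transcription factor gene Trp63, and the contractile genes Acta2, Myh11, Cnn1, Mylk, Oxtr and Myl9. They were chosen by name, and their Ensembl identifiers were looked up in GENCODE M1. All 10 were found among the 37991 genes of the count table, and all 10 were among the 14918 genes tested. RNA-seq was done on 24 samples of mouse mammary tissue. At weeks 6, 8, 10 and 12 of age, 3 PyMT mice and 3 FVB mice were sampled. The PyMT mice were females heterozygous for the MMTV-PyVT transgene on the FVB/N background, and the FVB females without it were the controls. The transgene encodes polyoma middle T antigen and is driven by the mouse mammary tumor virus promoter, which is active in mammary epithelium. The study assigned weeks 6, 8, 10 and 12 of the PyMT mice to hyperplasia, adenoma or mammary intraepithelial neoplasia, early carcinoma and late carcinoma, and it compared PyMT with FVB at each of them.

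A mammary duct has an inner luminal layer and an outer layer of myoepithelial cells, which lie on the basement membrane. Myoepithelial cells carry both a basal epithelial program, with the keratin pair Krt5 and Krt14 and the p63 protein from Trp63, and a smooth muscle program, with which they contract in answer to oxytocin and push out milk. The smooth muscle genes are also used by the mural cells of blood vessels, and the basal keratins and p63 are also used by skin. In whole tissue, fewer cells of a type and less RNA per cell cannot be told apart.

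Each sample's total count lay between 6969375 and 13516601. Values are given as normalized counts, which are counts over DESeq2 size factors, and log2 fold changes are from edgeR's quasi-likelihood test with their standard errors. Genes were called where the adjusted p was under 0.05 and the values differed by more than 2-fold. The p-values measure the spread between these samples, one from each mouse. The most frequent count above the lowest values was not at the low end in 13 of the 24 libraries, 6 PyMT and 7 FVB. It lay between 8 and 25 counts there and is called the packet of the library. Whether counts came in multiples of it was not tested. PyMT week 6 replicate 2, PyMT week 8 replicate 2 and FVB week 10 replicate 3 had packets of 25, 23 and 19 counts. Markers of epidermis, Krt1 and Krt10, stood at 125 and 86.2 CPM in FVB week 6 replicate 1 and at 176 and 119 CPM in PyMT week 12 replicate 2, and the hair genes Krt25, Krt71 and Tchh stood at 38.7, 39.7 and 128 CPM in FVB week 12 replicate 2. In the other 21 samples the summed level of the 12 epidermis and hair genes was 2.17 to 16.0 RPKM, against 145 to 154 in these 3, and the epidermal keratin gene Krt2 was at 0 in all 24.

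All 3 PyMT samples were below all 3 FVB samples at each of the 4 weeks for the 6 contractile genes, by 3.89- to 13.3-fold in the fitted values, while Krt5, Krt14 and Trp63 were not called in either direction at any week. At weeks 6, 8, 10 and 12, 4, 5, 6 and 6 of the 10 genes were called lower in PyMT, and every one of these was a contractile gene. Of all genes tested, 6.46%, 6.37%, 9.09% and 13.0% were called lower at those weeks. In the fit of all 24 samples with a term for week, 7 of the 10 were called lower, the 6 contractile genes and Krt17, against 17.2% of all genes. None of the 10 was called higher at any week or over all weeks, against 3.58%, 3.57%, 4.83% and 7.75% of all genes at the 4 weeks and 8.51% over all weeks. The contractile genes did not overlap between the genotypes at any week, and Krt17 did not at week 8. The share of all genes tested without such overlap was not counted, so these separations only describe the genes named. The median log2 fold change of the 6 contractile genes was -2.53, -2.66, -3.06 and -3.08 from week 6 to week 12, and that of all genes tested lay between -0.08 and 0.01. In the same samples the summed level of 10 genes of vascular mural cells, which use the same contractile genes, was 55.4 to 92.7 RPKM in PyMT and 218 to 340 in FVB, and the part of these cells in the values was not tested.

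**Figure D1:**
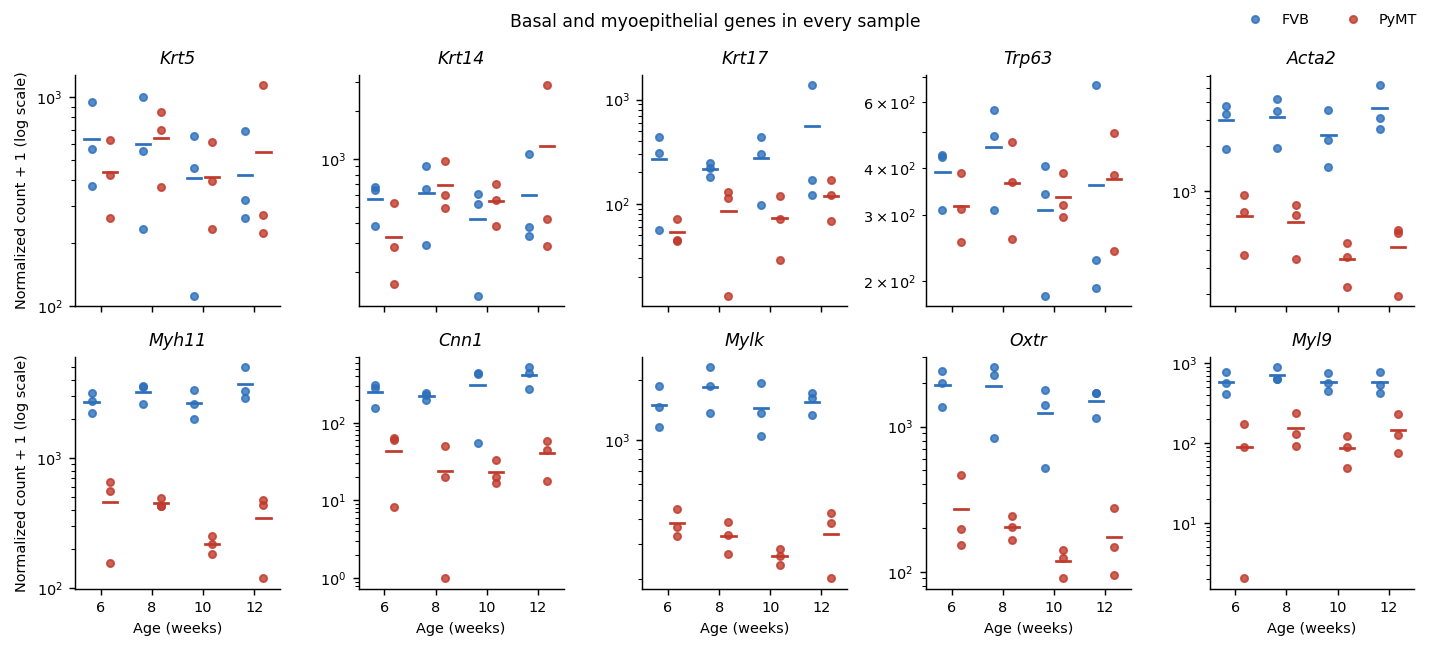
Normalized counts plus 1 (log axis) of the 10 genes by age in weeks, one panel for each gene. Points are single mice (FVB blue, PyMT red, 3 each), and short lines are group means. The PyMT points lie below the FVB points at every week for the 6 contractile genes, while the groups overlap at every week for Krt5, Krt14 and Trp63.

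**Figure D2:**
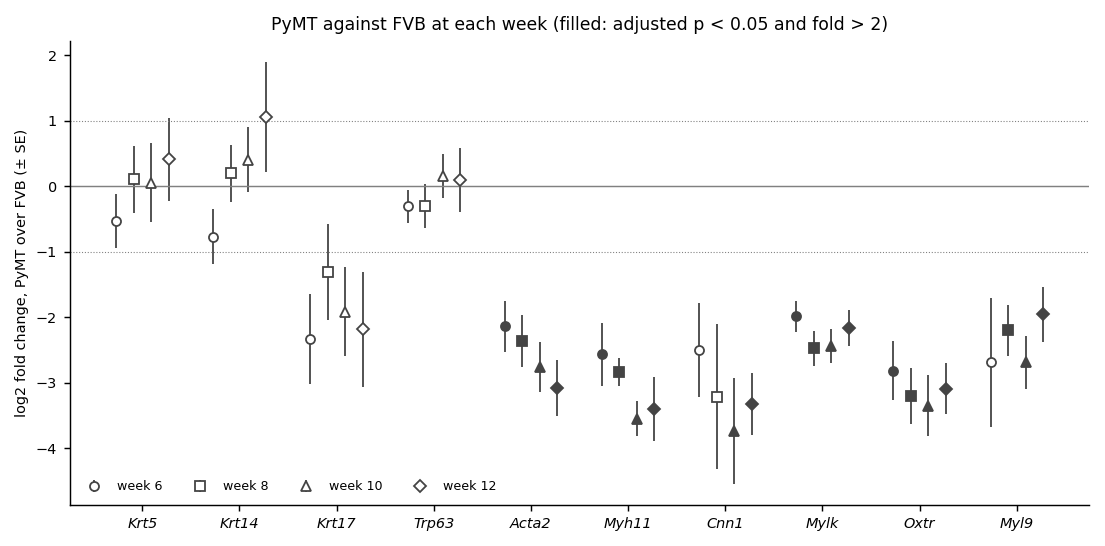
Log2 fold change of PyMT over FVB for each gene at weeks 6, 8, 10 and 12 (circle, square, triangle, diamond), with the standard error as bars. Filled symbols mark genes called at adjusted p under 0.05 and fold above 2, and dotted lines mark a fold change of 2. The contractile genes lie between -1.96 and -3.74, and Krt5, Krt14 and Trp63 between -0.77 and 1.05.

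Acta2 encodes smooth muscle alpha-actin, the thin filament protein by which myoepithelium is usually stained. The gene lies on the minus strand of chr19:34315580-34329826 (mm9) and shared no exon with another gene. At week 6 it was at 717, 369 and 937 normalized counts in the 3 PyMT samples and at 1916, 3293 and 3769 in the 3 FVB samples. The values of week 8 were 347, 684 and 806 for PyMT and 1939, 3451 and 4154 for FVB. At every week all PyMT samples were below all FVB samples, and the highest PyMT sample of the series, at 937, was below the lowest FVB sample, at 1446. At week 10 the counts were 359, 445 and 224 in PyMT and 2224, 3512 and 1446 in FVB, and at week 12 they were 544, 517 and 195 in PyMT against 2607, 5195 and 3097 in FVB. The log2 fold change was -2.14 ± 0.39 (SE; adjusted p = 0.0112) at week 6, -2.36 ± 0.39 (SE; adjusted p = 0.0115) at week 8, -2.76 ± 0.38 (SE; adjusted p = 0.00274) at week 10 and -3.08 ± 0.43 (SE; adjusted p = 0.00151) at week 12. The call at week 6 was lost without PyMT week 6 replicate 1 (-2.15; adjusted p = 0.0559).

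Myh11 encodes the smooth muscle myosin heavy chain and lies on the minus strand of chr16:14194620-14291501. It ranged over 118 to 650.1 normalized counts in the 12 PyMT samples, with a median of 426, and over 1992 to 4974 in the 12 FVB samples, with a median of 3023. No PyMT sample reached an FVB sample. At week 10 the PyMT samples stood at 252, 182 and 218 against 2608, 3311 and 1992 in FVB. The log2 fold change was -2.56 ± 0.48 (SE; adjusted p = 0.0128), -2.84 ± 0.21 (SE; adjusted p = 0.00168), -3.55 ± 0.26 (SE; adjusted p = 0.000227) and -3.40 ± 0.50 (SE; adjusted p = 0.00183) at weeks 6, 8, 10 and 12. Without PyMT week 6 replicate 1 the week 6 call was lost here too (-2.70; adjusted p = 0.0513), which together with Acta2 left 2 called genes at that week.

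Mylk encodes myosin light chain kinase, which turns on smooth muscle myosin by phosphorylating its regulatory light chain (plus strand, chr16:34745296-35002520). The PyMT samples ran from 201 to 446 normalized counts with a median of 329, and the FVB samples from 1048 to 2311 with a median of 1541. The groups did not overlap at any week. The log2 fold change was -1.99 ± 0.23 (SE; adjusted p = 0.00241), -2.48 ± 0.27 (SE; adjusted p = 0.00384), -2.44 ± 0.26 (SE; adjusted p = 0.000922) and -2.17 ± 0.28 (SE; adjusted p = 0.00111) at the 4 weeks.

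Myl9 encodes that regulatory light chain (plus strand, chr2:156601156-156607394). At week 6 it was at 88.1, 1.04 and 174 normalized counts in PyMT and 411, 561 and 774 in FVB, and the PyMT sample at 1.04 had 1 read. That sample was the library with packets of 25 counts. At week 8 the counts were 90.6, 130.3 and 238 against 636, 632 and 889. At week 10 they were 124, 48.2 and 89.6 against 559.9, 749 and 452, and at week 12 125, 233 and 74.9 against 429, 779 and 529. All 12 PyMT samples, at most at 238, were below all 12 FVB samples, at least at 411. The week 6 difference, -2.69 ± 0.99 (SE; adjusted p = 0.124), did not pass, and it did without the low library (-2.10; adjusted p = 0.0243) and in the fit of all 24 samples (adjusted p = 0.0154). At weeks 8, 10 and 12 it was -2.20 ± 0.39 (SE; adjusted p = 0.0135), -2.69 ± 0.41 (SE; adjusted p = 0.00403) and -1.96 ± 0.42 (SE; adjusted p = 0.0103). The week 12 call was lost in 2 of 15 alternatives, among them the fit that all 24 samples shared (adjusted p = 0.0551).

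Because the 6 contractile genes moved together, their promoters were searched for the CArG box, the site of serum response factor, which drives smooth muscle genes. Promoters of 7 of the 10 genes were in the RefSeq table used (GRCm38.p6, a later build than the mm9 of the counts), those of Krt5, Krt14, Acta2, Cnn1, Mylk, Oxtr and Myl9. The 250 bases before the start were searched for CC, 6 letters that are A or T, and GG, a pattern that is the same on both strands. One gene, Myl9, held the box, as did 1.40% of 27025 RefSeq promoters. With at most 1 other letter allowed, a rule added after that search, Acta2 held 2 boxes, with first bases 84 and 34 bases before the start, and Myl9 held 2, at 161 and 99 bases, while the other 5 held none in this window and 18.9% of all promoters held at least 1. The TATAAA box was in none of the 7 and in 13.0% of all promoters, searched on both strands. A match describes letters and not binding, and no match says nothing of the factor. The 2 promoters with matches are shown, 5′ to 3′ on the gene's strand, with the matches in capitals, from the minus strand of chr19:34255374-34255623 for Acta2 and the plus strand of chr2:156775214-156775463 for Myl9.
Acta2: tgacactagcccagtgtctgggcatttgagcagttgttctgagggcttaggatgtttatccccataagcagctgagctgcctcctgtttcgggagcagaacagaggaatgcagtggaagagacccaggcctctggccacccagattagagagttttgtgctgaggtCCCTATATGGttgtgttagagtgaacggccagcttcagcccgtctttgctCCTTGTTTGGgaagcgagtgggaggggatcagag
Myl9: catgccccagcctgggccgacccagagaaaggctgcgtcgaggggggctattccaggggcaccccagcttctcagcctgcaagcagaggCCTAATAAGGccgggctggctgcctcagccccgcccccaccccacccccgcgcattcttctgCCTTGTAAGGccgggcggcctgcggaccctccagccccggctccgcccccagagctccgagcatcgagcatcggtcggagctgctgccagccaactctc

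Cnn1 encodes calponin, which binds actin in smooth muscle (plus strand, chr9:21903725-21914074), and had the lowest level per length of the 6 in PyMT. In PyMT it was at 58.8, 7.30 and 62.4 normalized counts at week 6, 19.1, 0 and 49.4 at week 8, 32.0, 15.7 and 18.8 at week 10 and 44.2, 57.7 and 16.6 at week 12. In FVB it was at 156, 302 and 283 at week 6, 197, 242 and 229 at week 8, 420.4, 445 and 54.8 at week 10 and 441, 517 and 269 at week 12. The groups did not overlap within a week, but the FVB sample at 54.8, the library with packets of 19 counts, was below 3 PyMT samples of other weeks. The value of 0 was from the PyMT library with packets of 23 counts. For separate reads a count of 0 allows up to 3 counts. That bound would be too low in that library if its counts came in packets. The log2 fold change was -2.50 ± 0.71 (SE; adjusted p = 0.0582) at week 6 and -3.21 ± 1.10 (SE; adjusted p = 0.102) at week 8, neither of which passed, and -3.74 ± 0.81 (SE; adjusted p = 0.0175) and -3.33 ± 0.47 (SE; adjusted p = 0.00163) at weeks 10 and 12, which did. The first comparison passed without PyMT week 6 replicate 2 (-1.98; adjusted p = 0.0284) and the second without PyMT week 8 replicate 2 (-2.64; adjusted p = 0.0298), and DESeq2's Wald test called both (adjusted p = 0.00335 and 0.0147). The week 10 call was lost when any of the 3 PyMT samples or FVB replicate 1 or 2 was left out (adjusted p = 0.0533 to 0.0763).

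Oxtr encodes the oxytocin receptor, the G protein-coupled receptor through which oxytocin makes the myoepithelium contract (minus strand, chr6:112423678-112440884). At week 6 it was at 195, 152 and 465 normalized counts in PyMT and 1356, 2436 and 2010.5 in FVB. At week 8 it was at 202, 164 and 239 in PyMT against 840.2, 2279.5 and 2556 in FVB. At week 10 it was at 139.7, 123 and 89.6 in PyMT against 1409, 1778 and 515 in FVB, and at week 12 at 148, 275 and 93.3 in PyMT against 1696, 1698 and 1138 in FVB. The highest PyMT sample, at 465, was below the lowest FVB sample, at 515. The log2 fold change was -2.82 ± 0.45 (SE; adjusted p = 0.00703), -3.21 ± 0.43 (SE; adjusted p = 0.00663), -3.35 ± 0.47 (SE; adjusted p = 0.00278) and -3.09 ± 0.39 (SE; adjusted p = 0.000987) at the 4 weeks, or 7.07- to 10.2-fold lower.

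Krt5 and Krt14 encode the type II and type I keratins that pair into the filaments of basal epithelial cells. Krt14 (minus strand, chr11:100064476-100068862) was at 534, 167 and 285 normalized counts in PyMT and 380.1, 667 and 637 in FVB at week 6. Week 8 had 593, 498 and 976 for PyMT and 291, 648 and 898 for FVB, and week 10 had 558, 694 and 381 in PyMT against 524, 602 and 141 in FVB. The groups overlapped at each of these weeks. At week 12 the counts were 424, 2878 and 288 in PyMT and 377, 1076 and 334 in FVB, and the highest value of either group was in one of the libraries with epidermis or hair genes. The log2 fold change was -0.77 ± 0.42 (SE; adjusted p = 0.287), 0.19 ± 0.43 (SE; adjusted p = 0.817), 0.40 ± 0.50 (SE; adjusted p = 0.652) and 1.05 ± 0.84 (SE; adjusted p = 0.392) at weeks 6, 8, 10 and 12. Without PyMT week 12 replicate 2 the last of these was -0.70 (adjusted p = 0.403), and without both epidermis and hair libraries of that week it was 0.0033 (adjusted p = 0.996). Of the 50-base words of the Krt14 coding transcripts, 14.4% were also in coding transcripts of Krt16 or Krt17. What these shared words did to its counts was not measured.

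Krt5 (minus strand, chr15:101537501-101543322) stood at 621, 262 and 424 normalized counts in PyMT and 376, 950.2 and 566 in FVB at week 6. At week 8 it stood at 369, 694 and 845 in PyMT against 233, 551 and 1005 in FVB. At week 10 it stood at 398, 609.9 and 232 in PyMT against 458, 652 and 111 in FVB, and at week 12 at 271, 1142 and 224 in PyMT against 322, 689 and 262 in FVB. Both ends of the range over the series, 111 and 1142, were in libraries named above, FVB week 10 replicate 3 with packets and PyMT week 12 replicate 2 with epidermal keratins. The log2 fold changes were -0.54 ± 0.41, 0.11 ± 0.51, 0.05 ± 0.60 and 0.41 ± 0.63, with adjusted p of 0.45, 0.917, 0.968 and 0.674. Without both epidermis and hair libraries the week 12 value was -0.24 (adjusted p = 0.586). Of the 50-base words of the Krt5 coding transcripts, 8.36% were shared with Krt6a, Krt6b or Gm5414.

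Trp63 encodes p63, the transcription factor on which basal epithelium depends (plus strand, chr16:25683849-25892188). The PyMT samples ran from 239 to 496 normalized counts with a median of 342, and the FVB samples from 182 to 665 with a median of 372. The groups overlapped at every week. The log2 fold changes at weeks 6, 8, 10 and 12 were -0.31 ± 0.25, -0.30 ± 0.33, 0.16 ± 0.34 and 0.09 ± 0.48, with adjusted p of 0.486, 0.605, 0.811 and 0.91. Over all weeks, the 95% intervals of the log2 fold change by DESeq2's Wald test were -0.61 to 0.58 for Krt5, -0.53 to 0.92 for Krt14 and -0.51 to 0.28 for Trp63. For 1 difference shared by all weeks, a change of 2-fold was thus outside the interval of each of the 3, and smaller changes in either direction were inside it. The intervals of single weeks were wider. A change of 2-fold was inside them at every week for Krt5 and Krt14, and at weeks 8 and 12 for Trp63. At week 12 they were -0.76 to 1.53 for Krt5, -1.09 to 3.15 for Krt14 and -0.89 to 1.03 for Trp63. When scaled by library size alone, the values of Krt5 and Trp63 over all weeks turned from -5.7e-05 and -0.10 to 0.23 and 0.14, which stayed uncalled.

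Krt17 encodes a type I keratin of basal and stressed epithelium and of hair follicles (minus strand, chr11:100117531-100122343). At week 6 it was at 43.6, 42.8 and 70.3 normalized counts in PyMT and 55.6, 434 and 307 in FVB. At week 8 it was at 112, 12.2 and 129 in PyMT against 219.5, 181 and 243 in FVB, the single week at which the groups did not overlap. At week 10 it was at 70.3, 117 and 28.1 in PyMT against 297, 438 and 97.0 in FVB, and at week 12 at 66.8, 167 and 120.1 in PyMT against 121, 1378 and 167 in FVB. The value of 1378 was in the library with hair genes. None of the weekly log2 fold changes of -2.34 ± 0.68 (SE; adjusted p = 0.0639), -1.31 ± 0.73 (SE; adjusted p = 0.291), -1.92 ± 0.68 (SE; adjusted p = 0.0998) and -2.19 ± 0.88 (SE; adjusted p = 0.0997) passed. The fit over all weeks called it, at -1.95 ± 0.42 (SE; adjusted p = 0.00045), and so did that fit without the 3 epidermis and hair libraries (-1.72; adjusted p = 0.000774). Among the 11 libraries without packets, a setting added after the data were seen, it was -0.39 (adjusted p = 0.595). These held no PyMT library of week 6 and no FVB library of week 10, so with the term for week only weeks 8 and 12 bore on that value. The weekly calls of Krt17 turned on single libraries and on the test used. Krt17 passed at week 6 without FVB replicate 1 (adjusted p = 0.00531), at week 10 without FVB replicate 3 (adjusted p = 0.0187) and at week 12 without FVB replicate 1 (adjusted p = 0.0360). DESeq2's Wald test called it at weeks 6 and 10 (adjusted p = 0.00558 and 0.0328) and gave no adjusted p at week 12. Of the 14, 14 and 15 alternatives at weeks 6, 10 and 12, 3, 4 and 2 called Krt17.

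Per length, the order of the genes differed between the genotypes. In FVB the median levels in RPKM were 209 for Acta2, 60.5 for Myl9, 52.8 for Myh11, 38.8 for Oxtr, 37.4 for Krt14, 27.0 for Krt5, 17.1 for Krt17, 16.9 for Mylk, 13.5 for Cnn1 and 5.18 for Trp63. Acta2 did not overlap with Myl9, the next in that order, its lowest sample being at 92.1 RPKM against 89.0 for the highest of Myl9, and every other pair of neighbours overlapped over the 12 samples. Out of this order, 1 FVB sample of Krt17, the library with hair genes, was at 102 RPKM. In PyMT the order of medians was Krt14 at 34.0 RPKM, Acta2 at 32.0, Krt5 at 22.5, Myl9 at 10.9, Myh11 at 7.45, Krt17 at 5.34, Trp63 at 4.78, Mylk at 3.66, Oxtr at 3.53 and Cnn1 at 1.28, with overlap between all neighbours. The summed level of the 6 contractile genes was 196 to 587 RPKM in FVB and 27.9 to 112 in PyMT, without overlap, and that of Krt5, Krt14 and Trp63 was 17.3 to 119 in FVB and 29.97 to 267 in PyMT. The 267 was in PyMT week 12 replicate 2, with the epidermal keratins, and the next highest PyMT sample was at 120.

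The ratio of a contractile to a basal gene within a sample does not depend on the scaling between samples. The log2 ratio of counts plus 1 of Acta2 over Krt14 lay between 2.08 and 3.35 in the 12 FVB samples (median 2.48) and between -2.47 and 1.72 in the 12 PyMT samples (median -0.42). For Oxtr over Krt5 it was 1.30 to 2.39 in FVB and -2.30 to 0.13 in PyMT. For Myh11 over Trp63 it was 2.65 to 4.10 in FVB and -1.31 to 1.36 in PyMT. None of these 3 ratios overlapped between the genotypes. By week the mean ratio of Acta2 over Krt14 in PyMT was 1.09 ± 0.65, -0.20 ± 0.62, -0.68 ± 0.07 and -0.89 ± 1.45 (SD, n = 3) at weeks 6, 8, 10 and 12, while in FVB it was 2.40 ± 0.14, 2.45 ± 0.26, 2.66 ± 0.64 and 2.76 ± 0.47. The PyMT mean of week 12 held replicate 2, with the epidermal keratins, at -2.47. The other 2 samples were at 0.36 and -0.56, with a mean of -0.10, which was not below the means of weeks 8 and 10. The PyMT samples of week 6 were above those of weeks 10 and 12 in this ratio, with 0.42 as the lowest of week 6 and 0.36 as the highest of weeks 10 and 12, and overlapped those of week 8. In PyMT, Myh11 over Trp63 overlapped between week 6 (-1.31 to 1.36) and week 12 (-1.01 to 0.31). Oxtr over Krt5 overlapped too, at -1.67 to 0.13 and -2.05 to -0.87. No fall with age is thus read from the ratio of Acta2 over Krt14.

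**Figure D3:**
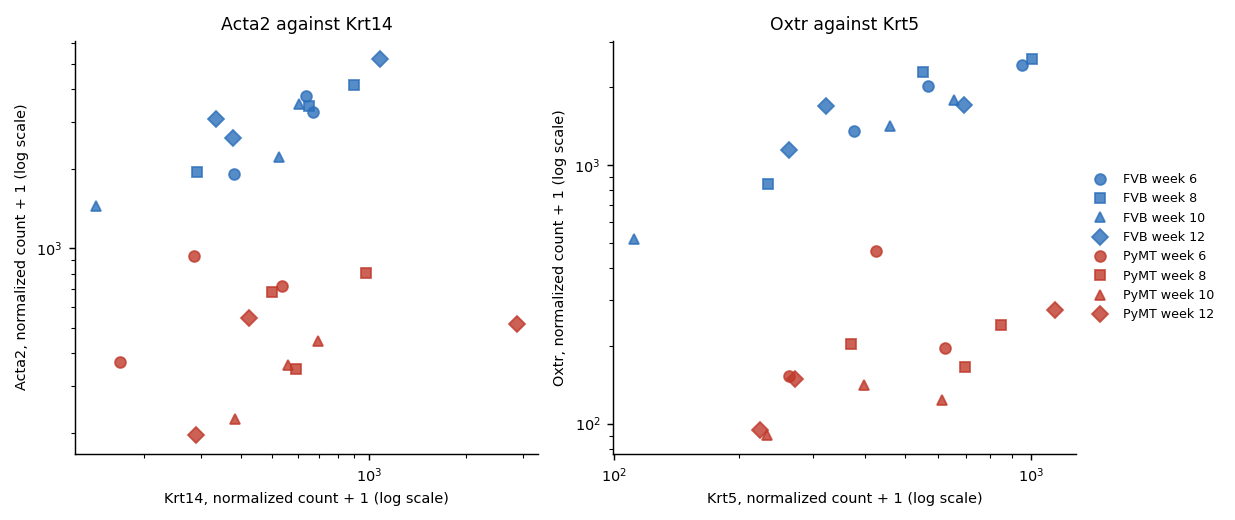
Normalized count plus 1 of Acta2 against Krt14 (left) and of Oxtr against Krt5 (right), both axes on a log scale, with a point for each of the 24 mice (FVB blue, PyMT red, the shape giving the week). In FVB the contractile gene was high where the keratin was high, and the PyMT points form a separate lower band, with 1 PyMT mouse of week 12 at 2878 for Krt14.

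The basal genes were also set against luminal genes within each sample, and these ratios move with the luminal genes as much as with the basal ones. The luminal keratin gene Krt18 was higher in PyMT over all weeks, at 1.49 ± 0.19 (SE; adjusted p = 4.76e-07), as were Krt8 at 1.72 ± 0.26 (SE; adjusted p = 5.2e-06), the epithelial adhesion gene Epcam at 2.04 ± 0.17 (SE; adjusted p = 4.07e-10) and the luminal progenitor factor gene Elf5 at 2.29 ± 0.17 (SE; adjusted p = 5.73e-11), while the keratin gene Krt19 was at -0.59 ± 0.23 (SE; adjusted p = 0.0388), under 2-fold and not called. The log2 ratio of Trp63 over Epcam was -2.56 to -1.17 in FVB and -4.99 to -3.27 in PyMT, without overlap. For Krt5 over Krt8 it was -2.63 to -1.06 in FVB and -5.04 to -1.90 in PyMT, and for Krt14 over Krt18 it was -2.44 to -0.74 and -4.46 to -0.24, both with overlap. The PyMT samples at -1.90 and -0.24 were replicate 2 of week 12, with the epidermal keratins. Without it the highest PyMT sample was at -2.66 for Krt5 over Krt8, which did not overlap with FVB, and at -1.81 for Krt14 over Krt18, which did. Over Krt19 the medians were instead higher in PyMT, at -1.27 against -1.89 in FVB for Krt14, -1.56 against -1.93 for Krt5 and -1.82 against -2.55 for Trp63, all with overlap. Of the 15 luminal genes listed, 6 were called higher and 5 lower over all weeks, the hormone receptor gene Esr1 and its cofactor gene Foxa1 being lower at every week. Of all genes tested, 8.51% were called higher and 17.2% lower over all weeks. The median log2 fold change of the 15 luminal genes was 0.92.

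Other genes of the basal program did not move as one. Of 34 other basal and p63-linked genes listed, 31 were tested, and 3, 2, 3 and 6 were called higher and 5, 3, 6 and 8 lower at weeks 6, 8, 10 and 12, with median log2 fold changes of -0.87, -0.12, -0.03 and -0.26. Of the 31, 4 were called higher and 10 lower over all weeks, and the shares of all genes called in each direction are those given above for the 10 genes. Lama3, which encodes a laminin chain of the basement membrane, and Mme, which encodes the surface peptidase CD10, were called lower at all 4 weeks, and Itgb4, an integrin gene of hemidesmosomes, was called higher at all 4. These 3 were chosen after their values were seen, as were all other genes named for a call at every week. Sox10, a transcription factor gene expressed in mammary progenitors, was higher at week 6 with 1.64 ± 0.34 (SE; adjusted p = 0.0182), at week 10 with 1.97 ± 0.56 (SE; adjusted p = 0.0499) and at week 12 with 2.44 ± 0.24 (SE; adjusted p = 0.000412), and was at 1.33 ± 0.42 (SE; adjusted p = 0.0846) at week 8, which did not pass. Dst, which encodes the linker protein dystonin, was lower over all weeks, at -1.09 ± 0.10 (SE; adjusted p = 5.3e-09). Itgb1, which encodes the integrin beta 1 chain of many cell types, was at 0.05 ± 0.07 (SE; adjusted p = 0.533).

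The other contractile and oxytocin pathway genes leaned lower. Of 33 listed, 31 were tested, and 8, 7, 7 and 11 were called lower against 1, 2, 2 and 2 higher at weeks 6, 8, 10 and 12, with median log2 fold changes of -0.56, -0.32, -0.53 and -0.57. Of all genes tested, 6.46%, 6.37%, 9.09% and 13.0% were called lower and 3.58%, 3.57%, 4.83% and 7.75% higher. Called lower at every week were Tagln, which encodes the actin-binding protein transgelin, Synpo2, which encodes an actin-bundling protein, Cacna1c, which encodes a voltage-gated calcium channel subunit, Plcb1, a phospholipase C gene downstream of G protein-coupled receptors, and Prkg1, which encodes the cGMP-dependent kinase. Calm2, one of the calmodulin genes, was called higher at every week, at 1.33 ± 0.08 (SE; adjusted p = 3.32e-12) over all weeks. Myl6 and Myh9, whose light and heavy myosin chains are made in most cells, were at 0.15 ± 0.09 (SE; adjusted p = 0.197) and 0.12 ± 0.11 (SE; adjusted p = 0.388). The tropomyosin genes Tpm1 and Tpm2 were at -1.47 ± 0.47 (SE; adjusted p = 0.0108) and -3.58 ± 0.76 (SE; adjusted p = 0.000382), and both are also expressed in skeletal muscle. The summed level of 8 skeletal muscle genes was 5976 to 26306 RPKM in FVB week 6 replicates 1 and 2, FVB week 10 replicate 3 and FVB week 12 replicate 1, against at most 1453 in any PyMT sample. All 8 were called lower in PyMT over all weeks, against 17.2% of all genes, with a median log2 fold change of -4.67. The part of muscle in the tropomyosin values was not tested.

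Genes of vessel walls, which share the smooth muscle program, were mostly called lower in the same comparisons. Of 9 tested vascular mural genes out of 10 listed, 7, 7, 5 and 7 were called lower at the 4 weeks, with median log2 fold changes of -1.54, -2.04, -2.62 and -2.26. Of all genes tested, 6.46%, 6.37%, 9.09% and 13.0% were called lower at those weeks and 17.2% over all weeks. Rgs5, a pericyte gene, was at -2.17 ± 0.14 (SE; adjusted p = 8.71e-12), and Pdgfrb, the receptor gene of mural cells, was at -2.05 ± 0.20 (SE; adjusted p = 5.41e-09) over all weeks. Notch3, a receptor gene listed here for mural cells, had the smallest difference of the list, at -0.87 ± 0.14 (SE; adjusted p = 1.07e-05), which was under 2-fold. Acta2 and Myh11 were set against each of the 6 most abundant mural genes (Rgs5, Mcam, Notch3, Pdgfrb, Abcc9 and Cspg4) within samples. The log2 ratio of Acta2 over Pdgfrb was -0.01 to 1.47 in FVB and -0.62 to 1.85 in PyMT, and that of Myh11 over Pdgfrb was 0.22 to 1.41 and -1.51 to 1.17, both with overlap. The ratios over Rgs5, Abcc9 and Cspg4 overlapped too for both genes, as did Acta2 over Mcam. The genotypes did not overlap for Acta2 over Notch3, at -0.17 to 1.29 in FVB and -2.81 to -0.27 in PyMT, for Myh11 over Notch3, at 0.15 to 1.23 and -3.53 to -0.83, and for Myh11 over Mcam, at 0.57 to 1.79 and -1.73 to 0.54. Notch3 and Mcam, the latter at -1.57 ± 0.12 (SE) over all weeks, had the smallest differences of the 6 mural genes. Ratios over these genes move with them too, and which cells expressed them was not tested. Genes of endothelium, fibroblasts and adipocytes had median log2 fold changes over all weeks of -2.39, -1.98 and -3.95, with all 8 genes of each list called lower, while the 7 macrophage genes had a median of 0.02 and none was called over all weeks (1 was called higher at week 6 and 2 lower at week 10). None of the mural, endothelial, fibroblast or adipocyte genes was at 0 in all samples of either genotype, and their summed levels did not overlap between the genotypes, at 20.1 to 54.0 RPKM in PyMT against 128 to 230.4 in FVB for endothelium, 330 to 767 against 1282 to 3116 for fibroblasts, and 100.2 to 1759 against 5134 to 11721 for adipocytes.

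**Figure D4:**
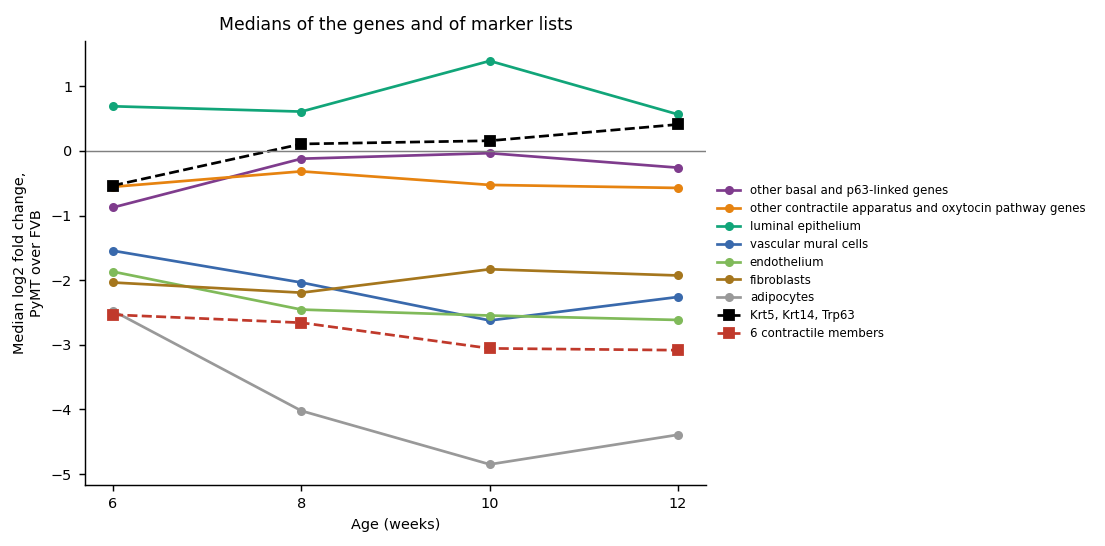
Median log2 fold change of PyMT over FVB at weeks 6, 8, 10 and 12 for the genes of each marker list (solid lines), for Krt5, Krt14 and Trp63 (dashed black) and for the 6 contractile genes (dashed red). The contractile genes lie at -2.53 to -3.08, and the 3 basal genes lie at -0.54 to 0.41.

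No change with age was detected in the 10 genes. Between weeks 6 and 12, the log2 fold changes ranged from -0.69 to 1.88 in PyMT and from -0.60 to 1.03 in FVB, and between weeks 8 and 10, where the lesions turn from adenoma to carcinoma, they ranged from -1.03 to -0.09 in PyMT. The difference between the genotypes in the week 6 to week 12 change ranged from -0.94 to 1.83. Of the 10 genes, 0 were called in each of these 4 comparisons by edgeR's quasi-likelihood test, and so were 0% of all genes tested, although 1004, 625, 262 and 691 genes had an unadjusted p under 0.05. At that unadjusted p were 1, 0, 1 and 0 of the 10. DESeq2's Wald test called 97, 19, 2 and 10 genes, none of the 10 among them. The largest value was that of Krt14 in PyMT, at 1.88 ± 0.72 (SE; adjusted p = 0.54 by edgeR), and it was 0.11 (adjusted p = 0.998) without the week 12 sample with epidermal keratins. All 10 values were below 0 from week 8 to week 10 in PyMT, with Myh11 at -1.03 ± 0.43 (SE; unadjusted p = 0.0262) as the lowest. The median of all genes tested was -0.01. Since the 10 genes varied together between mice, their shared sign is not 10 separate results. Myh11 and Oxtr did not overlap between the 2 weeks, Myh11 at 424 to 491 normalized counts at week 8 and 182 to 252 at week 10, and Oxtr at 164 to 239 and 89.6 to 140. The shares of all genes below 0 or without overlap were not counted, so no drop is read from these values.

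The genes also varied together from mouse to mouse. In FVB, Pearson's r of log2(normalized count + 1) over the 12 samples was 0.79 to 0.95 among Krt5, Krt14 and Trp63, 0.39 to 0.91 among the contractile genes and 0.45 to 0.94 between the sets (median 0.71 over 18 pairs). In PyMT the r values between the sets were 0.02 to 0.66 with a median of 0.34, those among Krt5, Krt14 and Trp63 were 0.41 to 0.81, and those among the contractile genes were 0.10 to 0.86. The medians within the sets were lower in PyMT too, at 0.60 against 0.87 in FVB among Krt5, Krt14 and Trp63 and 0.48 against 0.71 among the contractile genes. These are descriptions, since the values of a sample share its library and dissection. All 10 genes were below their group mean in FVB week 6 replicate 1 and FVB week 10 replicate 3 and above it in PyMT week 8 replicate 3, PyMT week 10 replicate 1, PyMT week 12 replicate 2, FVB week 8 replicate 3, FVB week 10 replicate 2 and FVB week 12 replicate 2. In the first 2 of these samples the summed skeletal muscle genes were at 26306 RPKM each, and the median deviation of the luminal genes from their group means was -0.21 and -0.67. In the 3 FVB samples with all 10 genes above the mean it was 0.57, 0.35 and 0.68, and in the 3 such PyMT samples it was 0.02, -0.12 and -0.07. Their part in the spread of the 10 genes was not tested.

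**Figure D5:**
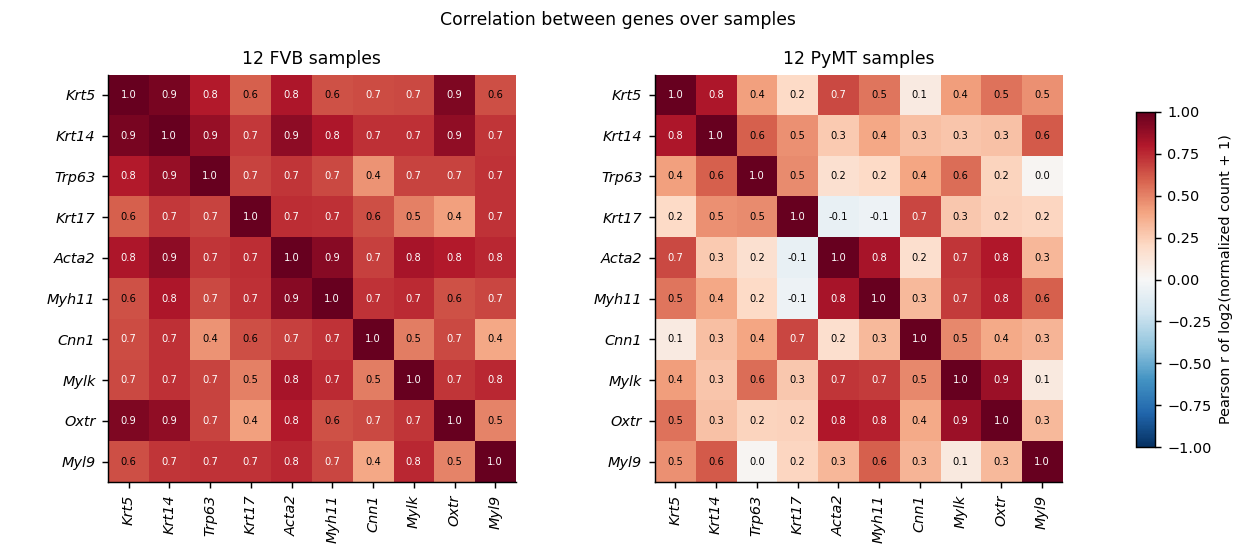
Pearson's r between the 10 genes over the 12 FVB samples (left) and the 12 PyMT samples (right), computed on log2(normalized count + 1), with the color scale from -1 to 1. The block between Krt5, Krt14, Trp63 and the contractile genes has a median of 0.71 in FVB and 0.34 in PyMT. The block among the contractile genes has 0.71 and 0.48, and that among Krt5, Krt14 and Trp63 has 0.87 and 0.60.

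Over all 24 samples, the 3 genes outside the 10 that were most like each of them were ranked by Pearson's r of log2(normalized count + 1), as a description. Tagln led for Acta2 (r = 0.96) and for Myh11 (r = 0.97), Adamts12 for Mylk (r = 0.98), Osr1 for Oxtr (r = 0.96), Prkcdbp for Myl9 (r = 0.94) and Gabbr1 for Cnn1 (r = 0.94). Pard3b was among the 3 for Acta2, Mylk and Oxtr, with r of 0.95, 0.98 and 0.95. For the basal genes the leading r was lower, with Sdc1 for Krt5 (r = 0.79), F2r for Krt14 (r = 0.72), Yeats2 for Trp63 (r = 0.78) and Ppp1r12a for Krt17 (r = 0.81). The r of the contractile genes includes the difference between the genotypes. Taken as deviations from group means, r was 0.75 for Acta2 with Tagln, 0.77 for Myh11 with Tagln and 0.73 for Oxtr with Osr1.

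Scaling by library size alone, without TMM factors, raised the median log2 fold change of all genes by 0.24 to 0.32 at the 4 weeks and by 0.29 over all weeks. The share of called genes that were lower in PyMT went from 62.6% to 65.3% at the 4 weeks with TMM down to 42.6% to 49.2%, and from 67.0% to 49.4% over all weeks. The counts of the 10 genes called lower stayed at 4, 5, 6, 6 and 7 under that scaling.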

How the data were processed

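Per the study's methods, RNA of mammary glands or tumors was sequenced, reads were aligned to mm9 with GSNAP, and the authors deposited HTSeq read counts per Ensembl gene, not normalized. The strand setting and annotation of the counting are not given in the sources used here. All 24 count columns were matched to samples by name. The 10 genes and the marker lists were chosen with earlier results of these data known.

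Gene models were from GENCODE M1 (mm9), which held 37205 of the 37991 genes. A gene was tested if its CPM reached 1 in 12 or more samples (14918 genes), using R 4.3.3 with edgeR 4.0.16 (quasi-likelihood F test, TMM, Benjamini-Hochberg adjustment over all tested genes), 3 PyMT against 3 FVB samples at each week. Comparisons over weeks used all 24 samples in 8 groups, or week as a term. Standard errors are the log2 fold change over the square root of F. RPKM is the TMM-scaled CPM per kb of exons. DESeq2 1.42.0 (Wald test), limma 3.58.1 (voom with quality weights), glmTreat, other scalings, no filter, 1 fit of all samples, a replicate block and each library left out were alternatives. Genes named from a list were up to 6 with the highest mean RPKM over all samples, and any others named were chosen after their values were seen. The packet of a library is the count, above 5, at which its smoothed number of genes peaks. The fits were tested on simulated counts. Replicates were checked for copies by the chi-square per gene, 19.7 to 247 over 24 pairs. Intervals for a count of 0 cover counting error only and take reads as separate, which may not hold in libraries with packets. Python 3.11.15, pandas 2.3.3 and matplotlib 3.10.9 made the tables and plots.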

Additional observations from a re-analysis of the deposited data

How the results depend on the processing

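At weeks 6, 8, 10 and 12 and over all weeks, 4, 5, 6, 6 and 7 of the 10 genes were called lower. Testing against a fold change of 2 (glmTreat) gave 2 at week 6 and 3 at week 8. At week 12 the call of Myl9 was lost in 2 of 15 alternatives. Leaving out 1 library at a time gave 2 to 6 at week 6, 5 to 6 at week 8, 5 to 7 at week 10, 6 to 7 at week 12 and 7 over all weeks. Only the 11 libraries without packets gave 6 in the fit with a term for week. They held no PyMT library of week 6 and no FVB library of week 10, so only weeks 8 and 12 bore on the difference. Leaving out the epidermis and hair libraries gave 6 at week 12 and 7 over all weeks. Both settings were chosen after seeing the data. The 4 comparisons over time had 0 under every setting run. Over all genes, 1498, 1484, 2076 and 3092 genes were called at the 4 weeks and 3840 over all weeks, against 374, 344, 871, 1363 and 2221 with glmTreat. At week 8, DESeq2 called 2489 and limma voom 2366. Without the filter, 8 genes were called between weeks 6 and 12 in PyMT and 11 in FVB.

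The values that turned sign were those of Krt5, Krt14 and Trp63, none of them called. With limma voom, Krt5 was -0.32 at week 8 and -0.37 at week 10, and Trp63 was -0.020 at week 10. Over all weeks Krt5 was 0.23 by library size only, 0.022 without the filter and 0.039 with the replicate block, and Trp63 was 0.14 by library size only. Among the 11 libraries without packets, where only weeks 8 and 12 bore on the difference, Krt5 was 0.43 and Trp63 was 0.42. Without the epidermis and hair libraries, Krt5 was -0.24 at week 12 and Krt14 -0.067 over all weeks. With 1 library left out at a time, Krt5 ranged from -0.26 to 0.74 at week 8, -0.39 to 0.55 at week 10, -0.73 to 0.91 at week 12 and -0.26 to 0.12 over all weeks. In the same fits, Krt14 ranged from -0.17 to 0.60 at week 8, -0.0070 to 0.73 at week 10, -0.70 to 1.77 at week 12 and -0.20 to 0.34 over all weeks. Likewise, Trp63 ranged from -0.11 to 0.41 at week 10, -0.22 to 0.85 at week 12 and -0.17 to 0.042 over all weeks. The cause of these turns was not tested.

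Same-numbered PyMT and FVB samples had a correlation of deviations between -0.04 and 0.20, over 0.1 in 4 of 12 pairs, and differently numbered samples of a week between -0.15 and 0.09. These values do not settle whether the numbers carry a shared structure. The sample labels name no pairing, so the main fits took none, and the replicate block was run as an alternative. With the replicate block, 4, 5, 7, 6 and 7 genes were called lower, Krt17 being added at week 10 (-1.87; adjusted p = 0.0265).

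With 3 samples a group, errors are wide for low genes: all 12 PyMT samples were under 100 normalized counts for Cnn1 and 7 of 12 for Krt17, where 1 packet changes a value.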
